A study of Mus musculus with 40 samples.

Results

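Cells transduced with PAX5-G183V were set against cells transduced with PAX5-Δ2-6, over 7 and 6 arrays of a series of 40. The members were the arrays whose titles name these constructs. Each array measured total RNA of J558LuM, a mouse plasmacytoma line (a tumour of antibody-secreting cells) that does not make PAX5 itself, and each came from a transduction of its own. The PAX5-G183V construct carries a glycine-to-valine change in the octapeptide motif of PAX5. The labels describe the other construct only as PAX5-Δ2-6. The remaining arrays held PAX5-WT and the empty vector MIR, 7 of each, which serve here as a second comparison, and PAX5-G183S and PAX5-P80R. By its title the series deals with germline PAX5 alterations in leukaemia of B cell precursors, and the comparison bears on what PAX5-G183V does in cells that lack PAX5.

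PAX5 is the transcription factor that commits lymphoid precursors to the B cell lineage and holds mature B cells in that identity. It binds DNA through its paired domain, activates genes of B cell receptor signalling, adhesion and transcription, and represses genes of other lineages. Its octapeptide motif recruits Groucho co-repressors such as TLE proteins. PAX5 is normally shut off when a B cell becomes a plasma cell, so a plasmacytoma line offers PAX5-negative cells into which the constructs can be introduced.

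The PAX5-G183V arrays came from transductions 7 to 9 in RNA isolation batch 1 and 46, 47, 49 and 50 in isolation batch 2, with 4 arrays on plate 1 and 3 on plate 2. The PAX5-Δ2-6 arrays came from transductions 4 to 6 in isolation batch 1 and 53, 56 and 57 in isolation batch 2, all 6 on plate 2. Within these 2 groups isolation batch 1 held transductions 4 to 9 and isolation batch 2 those from 46 to 57. Effects of isolation and of transduction series therefore cannot be told apart there. Plate and isolation batch were terms of the limma fit over all 40 arrays, in which the plate effect was estimated from the groups on both plates. All transductions were of 1 cell line, so p-values measure the spread between its transductions. The fit counts each array as independent, although for some genes arrays of 1 construct lay close within an isolation batch and apart between batches. For Ms4a1 the PAX5-G183V arrays read 7.93 to 7.99 in isolation batch 1 and 9.25 to 9.46 in isolation batch 2. Such genes hold fewer independent sets than arrays, so their pooled p-values can be too small. Values are the deposited log2 signals, so a difference of 1 is a 2-fold difference, and each difference is PAX5-G183V minus PAX5-Δ2-6 with its SE unless stated otherwise. Array medians lay between 4.21 and 4.27. The median SE of a difference was 0.086, and precision is limited by how many arrays there were. A gene was called at a Benjamini-Hochberg adjusted p under 0.05 over all 17097 genes.

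The cells carried the plasma cell transcripts of their label. Xbp1, a factor of the secretory programme, averaged 13.15 ± 0.08 in PAX5-G183V arrays and 13.24 ± 0.06 in PAX5-Δ2-6 arrays, and Jchain, which joins secreted antibodies into polymers, averaged 12.18 ± 0.11 in PAX5-G183V arrays and 12.57 ± 0.19 in PAX5-Δ2-6 arrays (SD, n = 7 and 6). Irf4, Tnfrsf17 (BCMA) and Prdm1 (Blimp-1), also typical of plasma cells, had group means between 9.05 and 10.93, and Sdc1 was not analysed here. Pax5 itself read 4.75, 4.85 and 5.11 in PAX5-G183V arrays, against 4.68, 5.00 and 5.90 in PAX5-Δ2-6 arrays, given as the lowest, median and highest array, a difference of -0.39 ± 0.17, adjusted p = 0.205. Both groups overlapped for Pax5, and whether its probe set lies in the part of PAX5 that the constructs carry was not tested, so the levels of the 2 constructs could not be compared. All arrays of both groups read above the MIR arrays, at 4.19 to 4.63, while PAX5-WT arrays, at 4.36 to 5.14, overlapped MIR. Cd79a, the immunoglobulin-associated alpha chain, stood near the array medians, at 4.00, 4.25 and 4.50 in PAX5-G183V arrays, against 4.28, 4.36 and 4.73 in PAX5-Δ2-6 arrays, and was not called (-0.17 ± 0.09, adjusted p = 0.34).

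Of 17097 genes, 572 rose and 280 fell in PAX5-G183V cells, 852 in all or 4.98%, with 3.35% higher and 1.64% lower. Of the 852, 109 were at least 1.5-fold higher and 32 at least 1.5-fold lower, and 26 and 8 passed 2-fold. The groups did not overlap for 494 genes, 2.89% of all, and 247 of those above and 134 of those below were also called. None of the 34 genes past 2-fold overlapped between the groups. With only the plate 2 arrays, where both constructs are present, 425 genes were called, and with only the 13 arrays of these groups 445. The share of calls that were higher depended on the scaling. It was 67.1% as deposited, 54.9% (444 higher, 365 lower) after quantile normalization was applied again, and 42.4% (391 higher, 532 lower) with the arrays centred on their medians, where the median of all genes lay at -0.037. The excess of rises over falls among small changes therefore rests on the scaling, while the 1.5-fold and larger changes described next are far above these shifts. Probe sets that name no single gene gave 247 calls among 16243, or 1.52%, of which 161 were higher and 86 lower.

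**Figure D1:**
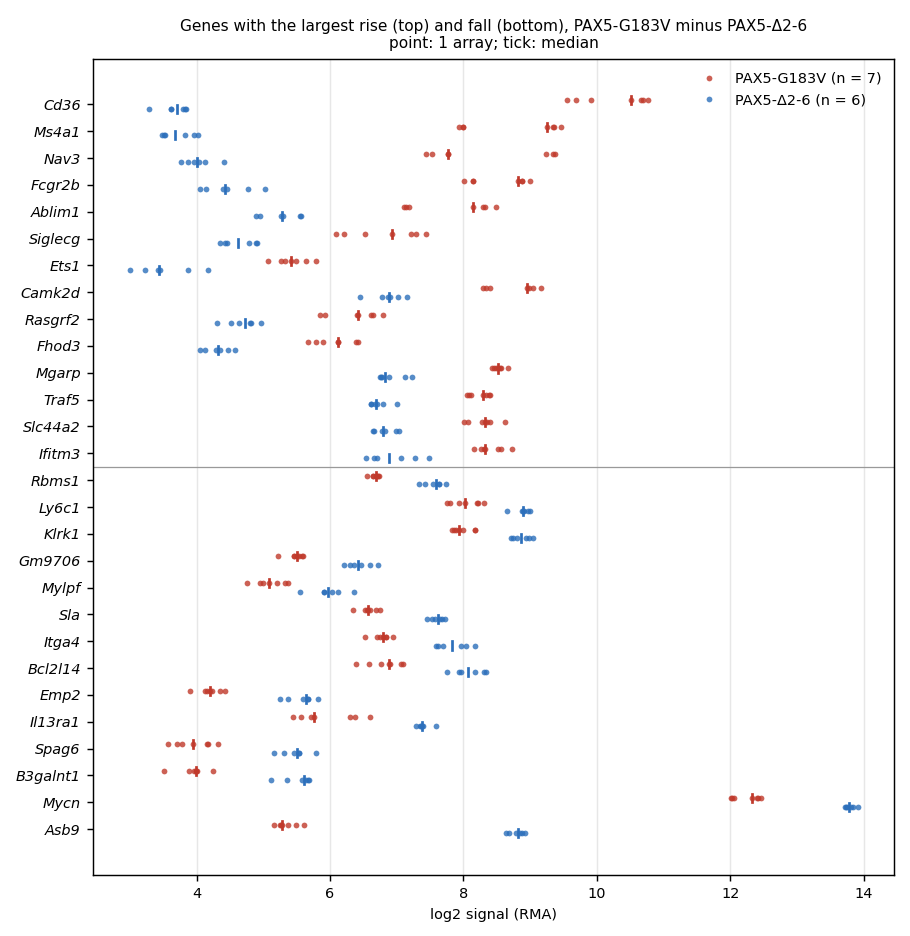
The x axis gives the log2 signal and each row is 1 gene, with the 14 largest rises above the line and the 14 largest falls below it; every point is 1 array (7 PAX5-G183V, red; 6 PAX5-Δ2-6, blue) and the tick marks the group median. The 2 colours do not overlap in any row, and the widest gap is that of Cd36, at 9.55 to 10.77 in PAX5-G183V cells against 3.29 to 3.84 in PAX5-Δ2-6 cells.

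Cell surface proteins were among the largest rises, and values are given as the lowest, median and highest array of a group. Cd36, a scavenger receptor that takes up long-chain fatty acids and is also found on marginal zone B cells, read 9.55, 10.51 and 10.77 in PAX5-G183V arrays, against 3.29, 3.71 and 3.84 in PAX5-Δ2-6 arrays. The difference was 6.54 ± 0.31, adjusted p = 5.43e-18, or 93.1-fold higher. Its other probe sets moved the same way by 5.41 and 1.97. Ms4a1 (CD20), the B cell antigen targeted by rituximab, read 7.93, 9.25 and 9.46 in PAX5-G183V arrays, against 3.49, 3.68 and 4.02 in PAX5-Δ2-6 arrays, a difference of 5.01 ± 0.31, adjusted p = 1.73e-14. Fcgr2b, an Fc receptor that inhibits B cell activation, read 8.00, 8.82 and 8.99 in PAX5-G183V arrays, against 4.05, 4.43 and 5.02 in PAX5-Δ2-6 arrays, a difference of 4.07 ± 0.30, adjusted p = 1.96e-12. In all 3 genes every PAX5-G183V array stood above every PAX5-Δ2-6 array, and the PAX5-Δ2-6 arrays of Cd36 and Ms4a1 lay below the array medians. A fold against such dim levels depends on the background correction of RMA. Siglecg, an inhibitory sialic acid receptor of B cells, read 6.09, 6.93 and 7.43 in PAX5-G183V arrays, against 4.35, 4.62 and 4.91 in PAX5-Δ2-6 arrays, a difference of 2.23 ± 0.21, adjusted p = 5.92e-10. Lair1, an inhibitory collagen receptor, rose by 1.36 ± 0.19 (adjusted p = 2.90e-06), with 6.08 ± 0.09 in PAX5-G183V arrays and 4.68 ± 0.18 in PAX5-Δ2-6 arrays (SD), without overlap. Among the B cell surface and inhibitory receptors, 5 of 18 measured members were called higher and 0 lower, against 3.35% and 1.64% of all genes, and the median difference of the list was 0.059, against 0.0041 for all genes. The 5 are the genes just described, and 13 members did not pass. All 25 lists were chosen with earlier results of these data known, so the shares of calls describe the lists and test nothing.

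Several genes of the cytoskeleton were among the large rises. Nav3, a microtubule-binding navigator protein best known from neurons, read 7.44, 7.77 and 9.37 in PAX5-G183V arrays, against 3.76, 4.00 and 4.41 in PAX5-Δ2-6 arrays, a difference of 4.33 ± 0.41, adjusted p = 9.27e-10. Ablim1, an actin-binding LIM protein, read 7.12, 8.15 and 8.49 in PAX5-G183V arrays, against 4.89, 5.28 and 5.56 in PAX5-Δ2-6 arrays, a difference of 2.54 ± 0.23, adjusted p = 2.38e-10. Fhod3, a formin that assembles actin filaments and is known from heart muscle, read 5.67, 6.12 and 6.41 in PAX5-G183V arrays, against 4.05, 4.32 and 4.57 in PAX5-Δ2-6 arrays, a difference of 1.74 ± 0.19, adjusted p = 1.59e-08. For each of these 3 genes the groups stood apart in every array. Of 20 measured cytoskeletal and neuronal-type genes, 5 were called higher, 0 lower and 15 not called, where 3.35% of all genes were called higher and 1.64% lower. The median was 0.052, against 0.0041 for all genes. This list, too, was chosen with earlier results known, so its share of calls is no test. Dpysl2, a collapsin response mediator, rose by 0.20 ± 0.06, and Coro1a, an actin regulator of leukocytes, by 0.43 ± 0.13. Coro1a lost its call in 18 of 30 alternatives, both other scalings included.

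The promoters of the changed genes were searched for GCGTGAC, a core of the sequence that the PAX5 paired domain recognises, and for its reverse complement GTCACGC. The windows are those of RefSeq on GRCm38.p6, 250 bases before to 50 bases after the gene start. The motif stood in 24 of 465 windows of genes called higher (5.16%), in 9 of 224 of genes called lower (4.02%) and in 483 of 13514 of all genes tested (3.57%). Among genes at least 1.5-fold higher 6 of 91 windows held it (6.59%), and among those at least 1.5-fold lower 0 of 25. Of the 28 genes with the largest changes 22 had a window and 1, Ablim1, held the motif. The 3 windows printed here are those with the largest rises among the 6, and the capitals mark the motif on either strand.
Ablim1 chr19:57274619-57274918 (minus strand): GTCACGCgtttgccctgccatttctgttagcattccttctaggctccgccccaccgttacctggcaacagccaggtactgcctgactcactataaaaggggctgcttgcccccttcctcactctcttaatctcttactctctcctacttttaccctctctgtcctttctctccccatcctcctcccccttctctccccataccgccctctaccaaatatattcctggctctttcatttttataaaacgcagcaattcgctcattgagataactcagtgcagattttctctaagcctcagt
Naglu chr11:101069844-101070143 (plus strand): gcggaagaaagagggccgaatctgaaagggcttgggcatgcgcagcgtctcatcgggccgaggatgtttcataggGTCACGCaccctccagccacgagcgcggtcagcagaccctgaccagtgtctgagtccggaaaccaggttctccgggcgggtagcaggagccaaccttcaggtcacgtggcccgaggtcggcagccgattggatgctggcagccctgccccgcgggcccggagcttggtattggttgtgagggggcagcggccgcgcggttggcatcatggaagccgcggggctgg
Ccng2 chr5:93267323-93267622 (plus strand): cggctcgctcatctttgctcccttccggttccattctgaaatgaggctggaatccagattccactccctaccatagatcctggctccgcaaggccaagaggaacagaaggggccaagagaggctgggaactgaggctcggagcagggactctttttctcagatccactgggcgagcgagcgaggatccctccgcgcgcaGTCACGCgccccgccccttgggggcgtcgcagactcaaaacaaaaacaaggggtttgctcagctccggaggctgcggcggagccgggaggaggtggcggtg
Naglu, a lysosomal glucosaminidase, averaged 6.38 ± 0.11 in PAX5-G183V arrays and 5.53 ± 0.27 in PAX5-Δ2-6 arrays (0.84 ± 0.11, adjusted p = 1.12e-06). Ccng2, an atypical cyclin, averaged 8.76 ± 0.37 and 8.08 ± 0.44 in the same groups (0.79 ± 0.16, adjusted p = 0.000971). A match describes the letters of the window and is not a binding site shown here.

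Transcription factors known from B lymphocytes were among the rises. Ets1, which in mice restrains the turn of B cells into plasma cells, read 5.08, 5.42 and 5.79 in PAX5-G183V arrays, against 3.00, 3.44 and 4.16 in PAX5-Δ2-6 arrays, a difference of 2.03 ± 0.22, adjusted p = 3.32e-08. Spib, an ETS factor of B cells and plasmacytoid dendritic cells, read 5.22, 6.51 and 6.81 in PAX5-G183V arrays, against 4.24, 4.65 and 5.01 in PAX5-Δ2-6 arrays, a difference of 1.41 ± 0.32, adjusted p = 0.0041. Id3, an inhibitor of E proteins, read 7.55, 8.12 and 8.41 in PAX5-G183V arrays, against 6.20, 7.07 and 7.34 in PAX5-Δ2-6 arrays, a difference of 1.10 ± 0.21, adjusted p = 4.51e-04. All PAX5-G183V arrays lay above all PAX5-Δ2-6 arrays for these 3 genes. The gaps were narrowest for Id3 and Spib, and both genes stood higher in PAX5-G183V cells of isolation batch 2 than in those of isolation batch 1. Ikzf1 (Ikaros) was high in both groups and rose by a smaller step, at 10.79, 11.02 and 11.11 in PAX5-G183V arrays, against 10.54, 10.58 and 10.74 in PAX5-Δ2-6 arrays (0.33 ± 0.04, adjusted p = 2.69e-07). Of 23 measured B lineage transcription factors 5 were called higher and 1 lower, against 3.35% and 1.64% of all genes. The median was 0.063. The fifth rise was that of Ikzf3 (Aiolos), by 0.27 ± 0.08, and the fall was that of Tcf12, an E protein, by 0.17 ± 0.05 on the log2 scale. Among 17 ETS factors 4 rose and 1 fell, against the same shares of all genes. Beside Ets1 and Spib these were Gabpa (0.33 ± 0.08, adjusted p = 0.00538) and Elk4 (0.18 ± 0.05), and Etv6, a repressor of the family, fell by 0.46 ± 0.14 (adjusted p = 0.0369). A second Gabpa probe set of similar brightness (mean 8.49 over all arrays) was not called, at 0.10. The other Ets1 probe sets differed by 0.25, 0.27 and 1.07, and only the last was called.

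Among signalling genes, Camk2d, a calcium- and calmodulin-dependent kinase subunit, read 8.29, 8.95 and 9.16 in PAX5-G183V arrays, against 6.44, 6.88 and 7.16 in PAX5-Δ2-6 arrays, a difference of 1.81 ± 0.13, adjusted p = 1.94e-12. Rasgrf2, an exchange factor that activates Ras, read 5.85, 6.42 and 6.79 in PAX5-G183V arrays, against 4.31, 4.72 and 4.96 in PAX5-Δ2-6 arrays, a difference of 1.74 ± 0.12, adjusted p = 5.32e-13. Traf5, an adaptor of TNF receptors, read 8.06, 8.29 and 8.40 in PAX5-G183V arrays, against 6.61, 6.69 and 7.00 in PAX5-Δ2-6 arrays, a difference of 1.49 ± 0.08, adjusted p = 2.91e-16, with the smallest SE of the 14 largest rises. None of the 3 genes had an array of one group within the range of the other. Mgarp, a mitochondrial protein, rose by 1.51 ± 0.10, adjusted p = 1.72e-13, and Slc44a2, a choline transporter-like protein, by 1.47 ± 0.13, adjusted p = 5.32e-10. Ifitm3, an interferon-induced membrane protein, had the widest error of these rises, at 1.45 ± 0.27, adjusted p = 4.39e-04. It read 8.15, 8.32 and 8.72 in PAX5-G183V arrays, against 6.53, 6.88 and 7.48 in PAX5-Δ2-6 arrays, so the groups still stood apart. Smaller rises included Hif1a, the oxygen-regulated transcription factor, at 0.77 ± 0.05, adjusted p = 1.37e-14, and Bcl2, which blocks apoptosis, at 0.64 ± 0.09, adjusted p = 4.39e-06. For Bcl2 the groups stood only just apart, with the lowest PAX5-G183V array at 7.16 and the highest PAX5-Δ2-6 array at 7.11. A second, dimmer probe set of each gene was not called, at -0.08 for Hif1a and 0.11 for Bcl2.

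Asb9 showed the largest fall. Asb9, a substrate receptor of ubiquitin ligases, read 5.16, 5.28 and 5.60 in PAX5-G183V arrays, against 8.64, 8.82 and 8.92 in PAX5-Δ2-6 arrays, a difference of -3.35 ± 0.17, adjusted p = 2.33e-17, or 10.2-fold lower. Mycn, a MYC family transcription factor, was one of the brightest genes on the arrays and read at most 12.45 (median 12.32) in PAX5-G183V arrays, against at least 13.72 (median 13.78) in PAX5-Δ2-6 arrays, a difference of -1.61 ± 0.15, adjusted p = 9.27e-10. No array of either gene crossed into the other group's range. The call for Mycn rests on 1 probe set, since its other 2 probe sets had means of 3.50 and 3.94 over all arrays and differences of 0.082 and 0.055 that were not called. Il13ra1, a subunit of the interleukin 13 receptor, read 5.44, 5.76 and 6.61 in PAX5-G183V arrays, against 7.29, 7.37 and 7.59 in PAX5-Δ2-6 arrays, a difference of -1.38 ± 0.20, adjusted p = 7.76e-06. Itga4, the alpha 4 integrin used by lymphocytes to enter tissues, read 6.52, 6.79 and 6.95 in PAX5-G183V arrays, against 7.58, 7.83 and 8.18 in PAX5-Δ2-6 arrays, a difference of -1.03 ± 0.14, adjusted p = 1.72e-06. Both stood apart between the groups, and Il13ra1 was the more variable in PAX5-G183V cells, with 5.44 to 5.76 in isolation batch 2 and 6.31 to 6.61 in isolation batch 1.

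Falls of the same order were seen in B3galnt1, a glycosyltransferase of glycolipid synthesis (-1.49 ± 0.15, adjusted p = 8.87e-09), and Spag6, a protein of the axoneme (-1.46 ± 0.19, adjusted p = 6.60e-07). Emp2, a tetraspan membrane protein, fell by 1.26 ± 0.13, and Bcl2l14, a BCL2 family member, by 1.26 ± 0.16 on the log2 scale. B3galnt1, Spag6 and Emp2 read at most 4.42 in PAX5-G183V arrays and at least 5.11 in PAX5-Δ2-6 arrays, so their levels in PAX5-G183V cells were near or below the array medians. Sla, an adaptor that dampens antigen receptor signalling, read 6.35, 6.56 and 6.75 in PAX5-G183V arrays, against 7.45, 7.61 and 7.73 in PAX5-Δ2-6 arrays, a difference of -0.99 ± 0.10, adjusted p = 2.40e-09. Klrk1 (NKG2D), an activating receptor of NK and T cells, fell by 0.90 ± 0.16, and Ly6c1, a surface antigen that plasma cells carry, by 0.87 ± 0.09 on the log2 scale. The list of falls was completed by Mylpf, a myosin light chain of muscle (-0.98 ± 0.13), Gm9706 (-0.91 ± 0.13) and Rbms1, an RNA-binding protein (-0.84 ± 0.17). None of these genes overlapped between the groups.

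Groups of genes with a known place in the PAX5 programme moved only in part. Of 23 measured genes listed as PAX5-activated in B cells, 5 were called higher and 1 lower, against 3.35% and 1.64% of all genes. The median of -0.040 was below that of all genes. The rises were Siglecg, Spib, Id3, Ikzf3 and Klhl14, a BTB-Kelch protein of B cells (0.38 ± 0.09), and the fall was Mycn. Cd79a was among the 17 that did not pass. Of 22 genes listed as repressed by PAX5, 2 rose and 2 fell, with a median of 0.00053. The largest change in that list was a rise, that of Flt3, the cytokine receptor of early progenitors, at 6.09, 6.47 and 6.81 in PAX5-G183V arrays, against 5.00, 5.25 and 5.77 in PAX5-Δ2-6 arrays (1.22 ± 0.14, adjusted p = 1.57e-07), without overlap. Plekha2, a phosphoinositide-binding adaptor, rose by 0.21 ± 0.05, while Xbp1 fell by 0.14 ± 0.04 and Grap2, an adaptor of T cell signalling, by 0.37 ± 0.10 on the log2 scale. A second Plekha2 probe set (mean 8.48 over all arrays) was not called, at 0.16.

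In B cell receptor signalling 2 of 21 genes rose and 2 fell, against 3.35% and 1.64% of all genes, with a median of 0.11. The rises were Vav1 (0.30 ± 0.09, adjusted p = 0.0305), a guanine nucleotide exchange factor of lymphocytes, and Ptpn6 (0.27 ± 0.08, adjusted p = 0.0448), the phosphatase SHP-1. Themis2, a signalling scaffold of B cells, fell by 0.36 ± 0.08 (adjusted p = 0.00524), and Cd81, a tetraspanin, by 0.14 ± 0.04. Of 30 alternatives the Ptpn6 call was lost in 20, that of Cd81 in 15 and that of Vav1 in 12. Under either other scaling 0 members of this list rose and 3 fell. The MHC class II list had 16 measured genes, of which 2 rose and 0 fell, with a median of 0.16. They were H2-DMa, which loads peptides onto class II molecules, at 5.28, 5.47 and 5.66 in PAX5-G183V arrays, against 4.42, 4.56 and 4.77 in PAX5-Δ2-6 arrays (0.94 ± 0.18, adjusted p = 4.71e-04), and the costimulatory ligand Cd80, at a low level (3.93 ± 0.07 in PAX5-G183V arrays and 3.51 ± 0.22 in PAX5-Δ2-6 arrays, SD) and with overlap. Cd74, the invariant chain, was not called (0.20 ± 0.14, adjusted p = 0.519).

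Some plasma cell genes fell, mostly in small steps from high levels. Of 14 measured members 0 were called higher and 4 lower, against 3.35% and 1.64% of all genes. The median was -0.11 against 0.0041 for all genes. Beside Ly6c1 the calls were Ell2, an elongation factor of secretory immunoglobulin mRNA (-0.32 ± 0.07, adjusted p = 0.0021), its partner Eaf2 (-0.23 ± 0.06, adjusted p = 0.00914) and Xbp1 (-0.14 ± 0.04, adjusted p = 0.0307). Ell2, Eaf2 and Ly6c1 did not overlap between the groups, and Xbp1 did. Prdm1 (-0.06 ± 0.06, adjusted p = 0.662) and Irf4 (-0.07 ± 0.05, adjusted p = 0.572) did not pass, nor did Jchain (-0.38 ± 0.17, adjusted p = 0.223) although its arrays did not overlap. In isolation batch 2 alone, Prdm1 (-0.19, adjusted p = 0.111) and Irf4 (-0.18, adjusted p = 0.056) were lower in every PAX5-G183V array than in any PAX5-Δ2-6 array, and in batch 1 alone both differences were 0.08, none of them called. Over 30 alternatives the Xbp1 call was lost in 14. That call is for the brightest Xbp1 probe set. Others, with means of 12.78 and 11.88 over all arrays, differed by -0.25 and -0.36. Their limma p-values adjusted over all probe sets were 0.000895 and 0.000483. A dimmer one, with a mean of 7.52, was not called, at -0.09. None of 5 immunoglobulin genes was called, and 0 passed at an unadjusted p under 0.05. Of 22 genes of the unfolded protein response, Atf4 (0.14 ± 0.04) and the ubiquitin ligase Syvn1 (0.26 ± 0.07) rose, while Edem1 (-0.22 ± 0.05) and Pdia4 (-0.28 ± 0.06), which act on misfolded proteins in the endoplasmic reticulum, fell. The Atf4 call was lost in 16 of the 30 alternatives.

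Since the octapeptide recruits Groucho proteins, their genes were listed as well. Of 17 Groucho co-repressors and PAX5 partners 2 rose and 0 fell, against 3.35% and 1.64% of all genes, with a median of 0.027. These were Rb1, the retinoblastoma protein (0.47 ± 0.09, adjusted p = 4.27e-04), whose arrays stood apart, and Tle1 (0.34 ± 0.09, adjusted p = 0.0142), whose arrays overlapped. Tle1 lost its call in 7 of 30 alternatives, among them when quantile normalization was applied again. Rb1 lost its call in 4 of 30, among them the mean of all probe sets. A second, dimmer Rb1 probe set (mean 3.86 over all arrays) was not called, at -0.09.

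**Figure D2:**
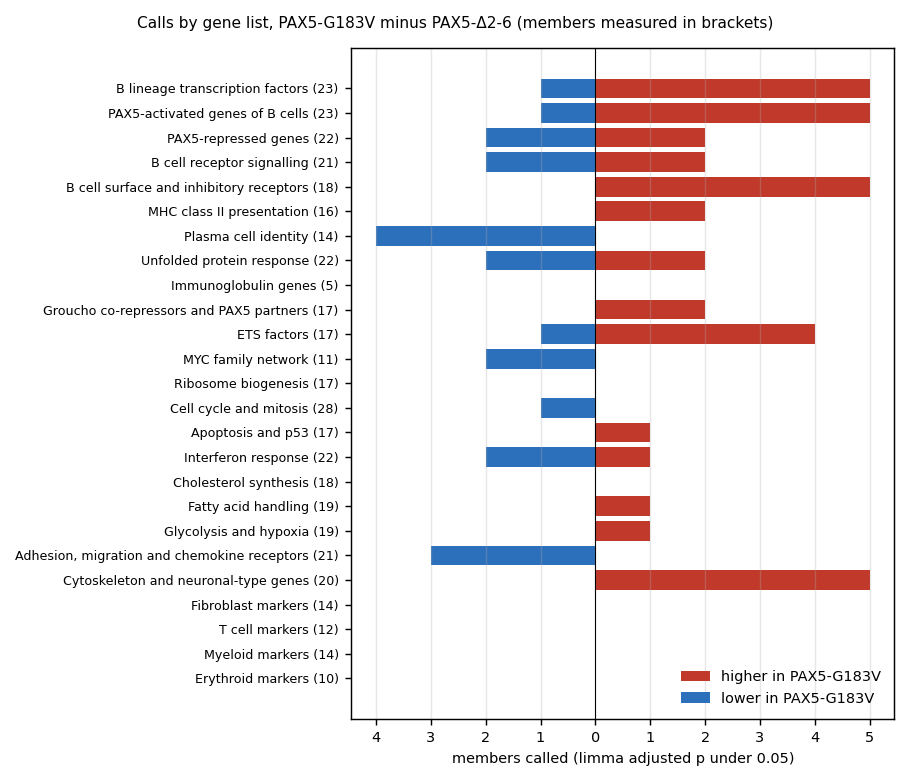
Bars count the measured members of each of 25 gene lists that were called higher (red, to the right) or lower (blue, to the left) in PAX5-G183V cells than in PAX5-Δ2-6 cells, with the number of measured members in brackets. No list has more than 5 members higher or 4 lower, and lists share genes such as Cd36, Ets1, Mycn and Xbp1.

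Several lists of growth and metabolism held calls at or below the 4.98% of all genes. Ribosome biogenesis had 0 of 17, cholesterol synthesis 0 of 18, and cell cycle 1 of 28, which was Mki67, a proliferation antigen, at 11.87, 11.94 and 12.04 in PAX5-G183V arrays, against 12.08, 12.18 and 12.23 in PAX5-Δ2-6 arrays (-0.22 ± 0.07, adjusted p = 0.0458). The Mki67 call was lost in 18 of 30 alternatives, among them 10 of the 13 that leave out 1 array. In the MYC network 2 of 11 fell, Mycn and Mlx (-0.34 ± 0.09, adjusted p = 0.0235). A second Mlx probe set (mean 6.82 over all arrays) was not called, at -0.14. Cd36 was the one call among 19 genes of fatty acid handling, Hif1a the one among 19 of glycolysis and hypoxia, and Bcl2 the one among 17 of apoptosis. The interferon list of 22 held Irgm1, a GTPase of autophagy, which rose by 0.99 ± 0.08, adjusted p = 7.35e-12, and Zbp1, a nucleic acid sensor, and Igtp, a GTPase of the same family as Irgm1, which fell (-0.54 ± 0.08, adjusted p = 2.32e-05 and -0.38 ± 0.08, adjusted p = 0.00126). Of 21 adhesion and migration genes 0 rose and 3 fell, namely Itga4, its partner Itgb1 (-0.29 ± 0.09, adjusted p = 0.0432) and the hyaluronan receptor Cd44 (-0.50 ± 0.08, adjusted p = 3.16e-05). The Itgb1 call was lost in 14 of 30 alternatives, among them 9 of the 13 that leave out 1 array. Other Itgb1 probe sets, with means of 8.79 and 6.65 over all arrays, were called at -0.29 and -0.27. Those with means of 3.17 and 3.36 were not called. Centring the arrays left 3 cytoskeletal genes higher and 1 lower. Apart from that list and B cell receptor signalling, another scaling moved no list by more than 1 call in either direction.

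Most markers of other cell types had a mean under 5. The mean level of 14 fibroblast markers ran from 3.68 to 3.83 in PAX5-G183V arrays and from 3.67 to 3.81 in PAX5-Δ2-6 arrays, and all 14 were under 5. For 12 T cell markers the ranges were 4.40 to 4.52 and 4.41 to 4.48, for 14 myeloid markers 4.18 to 4.29 and 4.22 to 4.38, and for 10 erythroid markers 4.78 to 4.94 and 4.85 to 4.98, in the same order of groups. Of these lists 10 of 12, 12 of 14 and 9 of 10 markers had a mean under 5. None of these markers was called by limma, while 1, 2, 2 and 1 passed at an unadjusted p under 0.05. In the T cell list Cd6, a T cell surface receptor, was not dim and came closest, at 7.03 ± 0.17 in PAX5-G183V cells and 6.72 ± 0.25 in PAX5-Δ2-6 cells (SD; 0.34 ± 0.10, adjusted p = 0.0524).

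PAX5-WT against MIR gives the effect of unaltered PAX5 in the same cells, from other transductions, and shares no array with the comparison above. In that comparison 1099 genes were called, 613 higher and 486 lower, or 6.43%. Of the genes, 542 were called in both comparisons in the same direction (360 higher, 182 lower) and 0 in opposite directions. They are 63.6% of the PAX5-G183V calls and 49.3% of the PAX5-WT calls. The sign agreed for 815 of the 852 PAX5-G183V calls, or 95.7%, against 64.7% of all genes. All 141 calls of at least 1.5-fold had the same sign in PAX5-WT against MIR, and 127 were called there. Of the 34 past 2-fold 33 were called there.

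**Figure D3:**
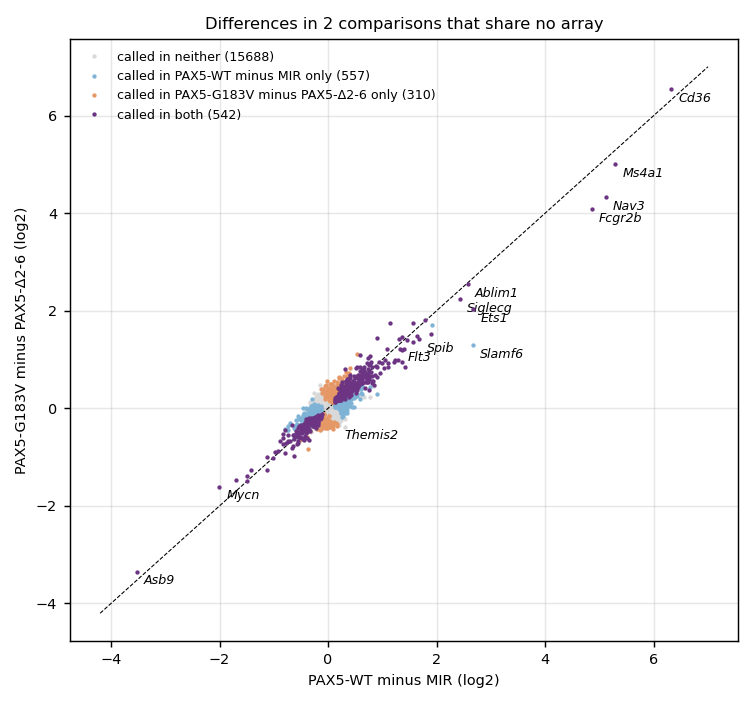
Each point is 1 of 17097 genes, with the log2 difference of PAX5-WT minus MIR on the x axis and of PAX5-G183V minus PAX5-Δ2-6 on the y axis, and the dashed line marks equal differences. The 542 genes called in both (purple) run along the line, and Slamf6 and Fcgr2b lie below it.

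The sizes were close as well. For the 145 PAX5-WT calls of at least 1.5-fold, the PAX5-G183V difference divided by the PAX5-WT difference had a median of 0.887, with quartiles of 0.758 and 1.01. These genes were chosen on their PAX5-WT values, which by itself can lower such a ratio. Cd36 had 6.54 ± 0.31 for PAX5-G183V minus PAX5-Δ2-6 and 6.32 ± 0.27 for PAX5-WT minus MIR. Ms4a1 had 5.01 ± 0.31 for PAX5-G183V minus PAX5-Δ2-6 and 5.29 ± 0.28 for PAX5-WT minus MIR, and Asb9 -3.35 ± 0.17 for PAX5-G183V minus PAX5-Δ2-6 and -3.53 ± 0.15 for PAX5-WT minus MIR. Fcgr2b had 4.07 ± 0.30 for PAX5-G183V minus PAX5-Δ2-6 and 4.85 ± 0.27 for PAX5-WT minus MIR, and Mycn -1.61 ± 0.15 for PAX5-G183V minus PAX5-Δ2-6 and -2.01 ± 0.14 for PAX5-WT minus MIR. The difference between the comparisons, tested in the same fit, was past the threshold for 0 genes, with a smallest adjusted p of 0.533 and 855 genes at an unadjusted p under 0.05. Its SE sets how small a difference could have been seen. The median SE was 0.115 over all genes, but it was 0.15 for Fam111a, 0.54 for Slamf6 and 0.77 for P2ry10. The result therefore does not show that the 2 responses are the same. The genes listed as repressed by PAX5 had 2 rises and 2 falls in both comparisons, and all 4 were the same genes.

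PAX5-Δ2-6 itself could be set against MIR only across different transduction numbers. In that comparison 0 genes were called by limma, with 1308 at an unadjusted p under 0.05 and a smallest adjusted p of 0.218. Ms4a1 read 3.49 to 4.02 in PAX5-Δ2-6 arrays and 3.23 to 4.08 in MIR arrays, and Asb9 8.64 to 8.92 and 8.41 to 9.29. For other genes the groups stood apart in isolation batch 2, where Itga4 read 7.96 to 8.18 in PAX5-Δ2-6 arrays and 7.22 to 7.58 in MIR arrays. Bcl2l14 there read 8.17 to 8.34 and 7.39 to 7.69 in the same order of groups. Each group had 3 arrays there, and the share of all genes standing apart was not counted. In isolation batch 1 both genes overlapped. Itga4 read 7.58 to 7.70 in PAX5-Δ2-6 arrays and 7.42 to 7.65 in MIR arrays, and Bcl2l14 7.76 to 7.96 and 7.62 to 8.08. Cd36 reached at most 3.84 in PAX5-Δ2-6 arrays and up to 5.89 in MIR arrays.

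Some genes passed the threshold in 1 of the comparisons alone. There were 14 PAX5-G183V calls of at least 1.5-fold that were not called in PAX5-WT against MIR, led by Grip2, a scaffold of glutamate receptors, with 1.11 ± 0.22 for PAX5-G183V minus PAX5-Δ2-6 and 0.53 ± 0.19 for PAX5-WT minus MIR. Rbms1 had -0.84 ± 0.17 for PAX5-G183V minus PAX5-Δ2-6 and -0.37 ± 0.15 for PAX5-WT minus MIR. In the other direction 20 PAX5-WT calls of at least 1.5-fold were not called for PAX5-G183V, led by Slamf6, a lymphocyte adhesion receptor, with 1.29 ± 0.40 for PAX5-G183V minus PAX5-Δ2-6 and 2.67 ± 0.36 for PAX5-WT minus MIR. Fam111a, a protease, had 0.29 ± 0.11 for PAX5-G183V minus PAX5-Δ2-6 and 0.91 ± 0.10 for PAX5-WT minus MIR, and Cd74 0.20 ± 0.14 for PAX5-G183V minus PAX5-Δ2-6 and 0.59 ± 0.12 for PAX5-WT minus MIR. None of these genes differed between the comparisons after adjustment, where the adjusted p was 0.999 for Grip2, 0.998 for Rbms1, 0.933 for Slamf6, 0.571 for Fam111a and 0.998 for Cd74. Themis2 had the smallest p of that test (3.1e-05, adjusted p = 0.533), with -0.36 ± 0.08 for PAX5-G183V minus PAX5-Δ2-6 and 0.17 ± 0.07 for PAX5-WT minus MIR.

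The comparison was also made within each RNA isolation batch, in a fit with a term for each group and batch. The 2 batches also held separate transduction series, so a batch difference cannot be assigned to RNA isolation alone. In isolation batch 2, with 4 PAX5-G183V and 3 PAX5-Δ2-6 arrays, 802 genes were called (4.69%, 488 higher and 314 lower). In isolation batch 1, with 3 arrays of each construct, 265 were called (1.55%, 203 higher and 62 lower). All 852 pooled calls had the same sign in both batches, 578 were called in batch 2 and 226 in batch 1, and 215 in neither. These genes were chosen on the pooled difference of the same arrays, so their agreement in sign was largely set in advance. Of the 141 calls of at least 1.5-fold 109 were larger in size in batch 2, with a median ratio of 1.28 to batch 1. Both batches called 88 of these 141, and 28 of the 34 past 2-fold.

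**Figure D4:**
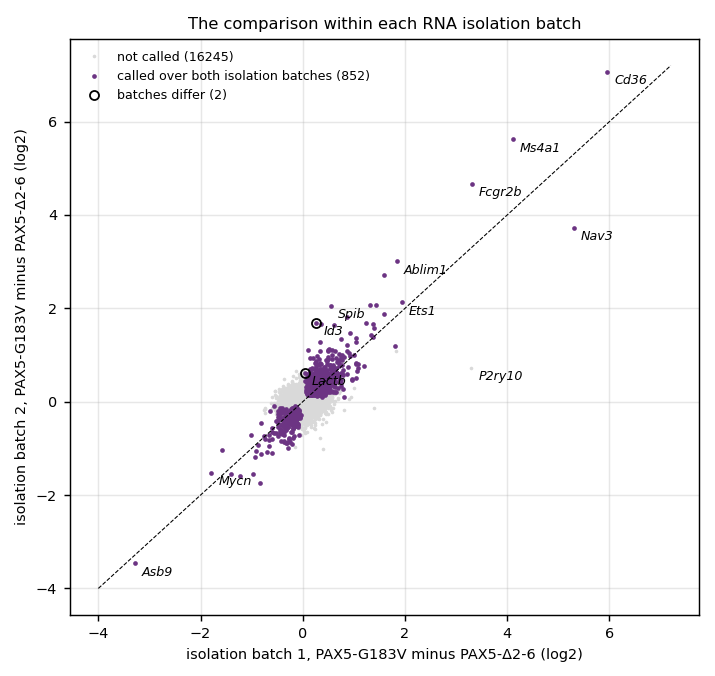
Each point is 1 gene, with the log2 difference of PAX5-G183V minus PAX5-Δ2-6 in isolation batch 1 on the x axis and in isolation batch 2 on the y axis; purple points are the 852 pooled calls, open circles the 2 genes whose batches differ, and the dashed line marks equal differences. All purple points have the same sign in both batches, which their choice on the pooled difference of these arrays largely sets. Ms4a1, Cd36 and Ablim1 lie above the line while Nav3 and P2ry10 lie below it.

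The difference between the batches was tested for every gene and passed for 2, or 0.0117%, Id3 and Lactb, with 1259 genes at an unadjusted p under 0.05. Id3 differed between the constructs by 1.69 in isolation batch 2 and 0.26 in isolation batch 1, a batch difference of 1.43 ± 0.21 (adjusted p = 0.00132). Its PAX5-G183V arrays read 8.12 to 8.41 in batch 2 and 7.55 to 7.69 in batch 1, against PAX5-Δ2-6 arrays at 6.20 to 6.87 in batch 2 and 7.26 to 7.34 in batch 1. The level was thus higher in batch 2 with PAX5-G183V and lower in batch 2 with PAX5-Δ2-6. Id3 was lower in batch 2 in other groups too. PAX5-WT arrays read 6.99 to 7.26 in batch 2 and 7.91 to 8.26 in batch 1, and MIR arrays 6.53 to 6.97 and 7.22 to 7.53. Lactb, a mitochondrial filament-forming protein, differed by 0.62 in isolation batch 2 and 0.04 in isolation batch 1, a batch difference of 0.58 ± 0.10 (adjusted p = 0.00941). Its PAX5-G183V arrays read 9.34 to 9.52 in batch 2 and 9.21 to 9.30 in batch 1, against PAX5-Δ2-6 arrays at 8.72 to 8.89 and 9.12 to 9.22, so the constructs overlapped in batch 1 and not in batch 2. Lactb was also lower in batch 2 in PAX5-WT arrays (9.02 to 9.22, against 9.32 to 9.52) and MIR arrays (8.93 to 9.09, against 9.15 to 9.28). Ms4a1 (5.62 in isolation batch 2 and 4.11 in isolation batch 1), Spib (2.06 in isolation batch 2 and 0.55 in isolation batch 1) and P2ry10 (0.72 in isolation batch 2 and 3.30 in isolation batch 1) missed the threshold, each with an adjusted p of 0.0514. Over 19 alternatives the batch difference of Id3 was called in 18, the exception being the plate 2 arrays alone (adjusted p = 0.0626), and that of Lactb in 15. The batch difference passed for Ms4a1 in 6 of 19 alternatives, for Spib in 5 of 19 and for P2ry10 in 4 of 18.

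**Figure D5:**
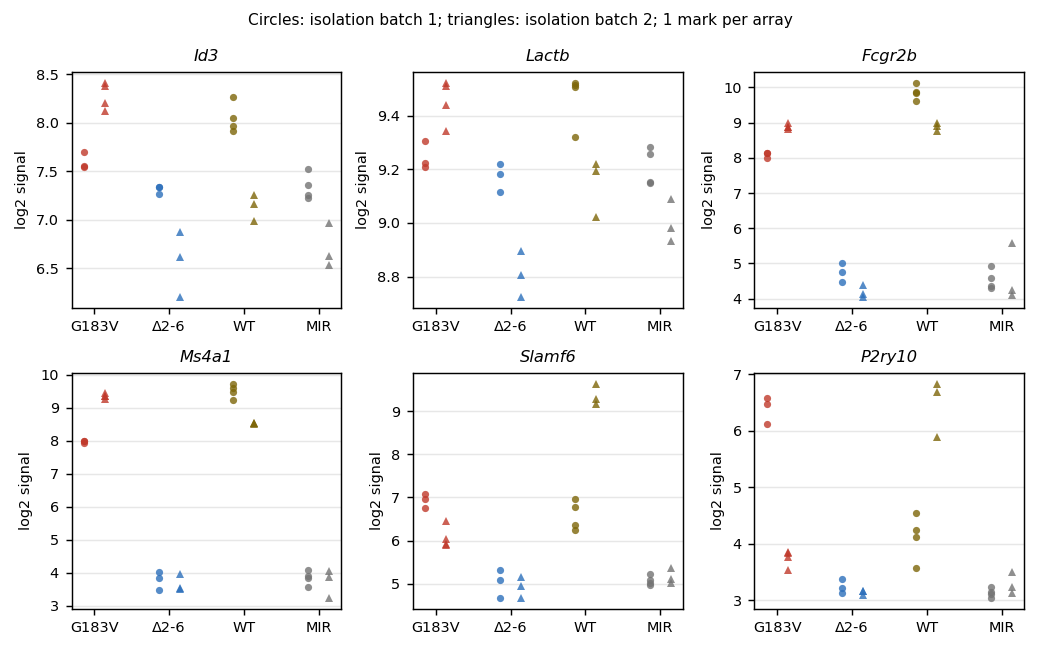
Each panel gives the log2 signal of 1 gene in PAX5-G183V, PAX5-Δ2-6, PAX5-WT and MIR arrays, with circles for isolation batch 1 and triangles for isolation batch 2. In PAX5-G183V cells Ms4a1 and Fcgr2b are higher in batch 2, in PAX5-WT cells in batch 1, and P2ry10 and Slamf6 are the other way round, while the PAX5-Δ2-6 and MIR arrays of these 4 genes stay between 3.04 and 5.58.

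P2ry10, a lysophospholipid receptor of lymphocytes, read 3.53 to 3.85 in PAX5-G183V arrays of batch 2 and 6.11 to 6.57 in those of batch 1, against 3.09 to 3.17 and 3.13 to 3.38 in PAX5-Δ2-6 arrays. In PAX5-WT arrays it read 5.89 to 6.83 in batch 2 and 3.56 to 4.55 in batch 1. Slamf6 read 5.90 to 6.44 in PAX5-G183V arrays of batch 2 and 6.76 to 7.09 in those of batch 1, with PAX5-WT arrays at 9.17 to 9.65 and 6.25 to 6.96. High and low batches were thus exchanged between the constructs for P2ry10. Gng2, a G protein gamma subunit, showed the same exchange. Its PAX5-G183V arrays read 4.36 to 4.56 in batch 2 and 5.79 to 6.29 in batch 1. PAX5-WT arrays read 6.19 to 6.40 and 4.62 to 4.78. The batches also held different transductions, for PAX5-WT 61 to 63 in batch 2 and 36 to 43 in batch 1. In batch 2, PAX5-G183S replicate 4 (transduction 45) read 3.63 for P2ry10. Replicates 5 to 7 (transductions 64 to 66) read 5.95 to 6.65 there, and PAX5-G183S arrays of batch 1 read 3.62 to 3.78. Whether the exchange follows isolation or transduction was not tested.

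In fits of the arrays of a single batch, the difference between PAX5-G183V minus PAX5-Δ2-6 and PAX5-WT minus MIR passed for 1 gene in batch 2 and 8 genes in batch 1. In batch 2 it was Slamf6 (-3.01 ± 0.41, adjusted p = 0.0148). In batch 1 Fcgr2b (-2.16 ± 0.23, adjusted p = 0.000733), Ms4a1 (-1.61 ± 0.20, adjusted p = 0.00168), Foxa1 and Pinlyp were smaller for PAX5-G183V, and P2ry10 (2.03 ± 0.24, adjusted p = 0.0014), Gng2, Dnmbp and 2310068J16Rik were higher. None of the 9 passed in the other batch, where Fcgr2b, Ms4a1 and Foxa1 had the opposite sign at 0.55, 0.88 and 0.58, as did P2ry10 and Gng2 at -2.23 and -1.85 and Slamf6 at 0.15.

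Of the 852 called genes 450 had more than 1 probe set. For 371 of them at least 1 other probe set was not called, and for 2 another probe set was called in the opposite direction. Dim genes were few among the calls, with 109 of 852 having a mean under 5 over all arrays, against 8824 of 17097 genes.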

How the data were processed

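Biotin-labelled total RNA of 40 transductions was measured on Affymetrix arrays, 1 array each. Each probe set has 1 deposited log2 signal per array, which the authors computed with RMA according to the submitters' processing notes. Neither its version nor any filter is stated there, and no further normalization was applied. The number of arrays, with a median SE of 0.086, limits what can be detected. No 2 columns were identical, and the highest correlation between arrays was 0.997.

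The platform annotation gives 1 gene to 28898 of 45141 probe sets, several to 551 and none to 15692. Each of 17097 genes was represented by its brightest probe set, by the mean of all arrays. Using limma 3.58.1 (R 4.3.3, with statmod 1.5.0), 1 model was fitted to all 40 arrays, with terms for 6 groups, plate and RNA isolation batch, leaving 32 residual degrees of freedom. Contrasts were moderated with eBayes, and p-values were adjusted over all genes by the Benjamini-Hochberg method (called at 0.05). Isolation batches were compared in a fit with a term for each group and batch. Groups, plates, batches and transduction numbers came from the labels.

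The members and the 25 gene lists (467 genes, 406 of them measured, 7 through an older symbol or synonym) were chosen with earlier results of these data known. The named genes were the 14 largest rises and 14 largest falls among calls, up to 4 calls with the largest change per list, up to 8 calls each of the batch difference and of the difference between comparisons, and the markers Pax5, Cd79a, Prdm1, Xbp1 and Sdc1. Irf4, Jchain and Tnfrsf17 are the other plasma cell markers. Lair1, Ikzf3, Tcf12, Elk4, Dpysl2, Klhl14, Cd6, Cd74, Naglu, Ccng2 and the genes passing in 1 comparison or 1 batch alone were picked with their values in view. The scripts were tested on simulated data in which set changes had been planted. Same-numbered replicates did not deviate together (correlations -0.060 to 0.076), so the number was taken as a name only. The alternatives were other batch terms, subsets of arrays, probe set means, other scalings, a filter on dim genes, other moderation, array weights, a 1.5-fold minimum, a replicate block and each array left out in turn.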

Additional observations from a re-analysis of the deposited data

Results flagged for a closer look

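Of 136 groups of arrays tested among the named genes, 4 had an array far from the rest by Dixon's criterion, which chance flags in about 1 of 20 groups. PAX5-G183V replicate 4 read 7.222 for Vav1, with the nearest array at 6.96, and PAX5-G183V replicate 5 read 5.213 for Gm9706, with the nearest at 5.456. PAX5-Δ2-6 replicate 1 read 8.65 for Ly6c1, with the nearest array at 8.884, and PAX5-Δ2-6 replicate 4 read 7.59 for Il13ra1, with the nearest at 7.396. Without PAX5-G183V replicate 4 the call for Vav1 was lost, but it was lost in 5 of the 13 fits that leave out 1 array. The others were those without PAX5-G183V replicate 3 or 6 or PAX5-Δ2-6 replicate 5 or 6.

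The difference between the constructs itself differed between isolation batches, by the test of that difference, for Id3 (batch 2 minus batch 1, 1.43, adjusted p = 0.00132) and for Lactb (0.583, adjusted p = 0.00941). The batches were also separate transduction series, so isolation and transduction cannot be told apart.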

How the results depend on the processing

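The count of 852 called genes became 445 with only the 13 arrays of both groups, 495 with PAX5-P80R added (19 arrays), 425 with plate 2 arrays, 545 and 200 with the arrays of isolation batch 2 and 1 alone, and 141 with a 1.5-fold minimum. These fits hold fewer arrays or a stricter rule. With a replicate block it was 393, although the numbers did not pair the arrays, and the cause was not tested. The 542 calls shared with PAX5-WT minus MIR became 166 on plate 2, 174 and 151 in isolation batch 2 and 1 alone, and 312 with the replicate block. The difference between these comparisons gave 0 genes, but 1 in isolation batch 2 and 8 in isolation batch 1 alone. The 2 genes whose batches differed became 15 with the 13 arrays, 4 on plate 2, 17 with the mean of all probe sets, 25 with genes of mean at least 5, and 32 with trend and robust settings. With 1 array left out the counts ran from 646 to 843 calls, 448 to 540 shared calls, 0 to 0 genes for the difference between comparisons, and 1 to 4 for the batches. The call for Lactb was lost without PAX5-G183V replicate 2 or PAX5-Δ2-6 replicate 2, leaving 1 gene, and 4 genes passed without PAX5-G183V replicate 4 or 5 or PAX5-Δ2-6 replicate 3 or 6. None of the 62 named calls reversed in any of the 30 alternatives. Of 62 named calls 41 were kept with the replicate block, 45 with the 13 arrays and 42 on plate 2. Of the 28 largest changes, Rbms1 lost its call in 2 alternatives and Gm9706, Mylpf and Il13ra1 in 1 each. Among the others, calls were lost in 20 alternatives for Ptpn6, 18 for Coro1a and Mki67, 16 for Atf4, 15 for Cd81, 14 for Itgb1 and Xbp1, 13 for Etv6, 12 for Vav1 and 11 for Grap2. Signals near the array medians limit what dim genes can show.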
